A study of Mus musculus with 3 samples.

Results

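Glutamate and GABA receptor genes were examined for peaks of 5-hydroxymethylcytosine (5hmC), a base that TET enzymes produce when they oxidise 5-methylcytosine, in bone marrow cells of mice. The members were the autosomal protein-coding genes whose symbols name a subunit of an AMPA, kainate, NMDA or delta receptor (Gria, Grik, Grin, Grid), a metabotropic glutamate receptor (Grm), or a GABA-A or GABA-B receptor (Gabra, Gabrb, Gabrg, Gabrr, Gabrd, Gabrp, Gabbr). They are 43 of the 20560 autosomal protein-coding genes, 25 for glutamate and 18 for GABA receptors, and the rule that picks them uses gene names and no peak values. The series has 3 samples, all bone marrow cells: 1 of normal marrow and 2 of NIDF-AML, a leukaemia induced by FLT3-ITD, DNMT3A/R882H, NPMc and IDH2/R140Q together. Strain, age and the way the mutants were introduced were not stated in the labels. Peak lists were used for both leukaemia samples, and a list for normal marrow was not analysed here.

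Both lists hold the same 223267 lines, which are 208468 distinct intervals with no score. They were counted as 1 list, so no value has a replicate and nothing was compared between leukaemia and normal marrow. In both files the library with index 4 is the treatment, set against index 5 in one list and index 6 in the other. No label ties index 4 to a sample, so all values belong to the index 4 library. Read depth is unknown, and a gene without a peak is only a gene for which none was listed. In bulk marrow, 5hmC in a few cells and weak 5hmC in many cells cannot be told apart. The marrow origin was checked on marker genes. A peak was listed at 10 of 10 myeloid markers, with a median of 13 peaks and 34 each at Spi1 and Csf1r. Of 8 neuron markers 5 had one, with a median of 1, none at Snap25, Stmn2 and Syt1, and 14 at Rbfox3. Of 5 astrocyte markers 4 had one, with a median of 4 and none at Aqp4. Over all autosomal protein-coding genes 76.1% had a peak, with a median of 4, so the astrocyte share was near that of all genes. More peaks than the median gene of like span, as defined below, were listed at 10 of 10 myeloid, 1 of 8 neuron and 0 of 5 astrocyte markers.

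Glutamate is the main excitatory transmitter of the brain and GABA the main inhibitory one. AMPA, kainate and NMDA receptors are cation channels, GABA-A receptors are chloride channels, and metabotropic glutamate and GABA-B receptors signal through G proteins. Most of these genes are known chiefly from neurons, and many are very long. In other tissues 5hmC lies mainly in the bodies of transcribed genes and at enhancers. RNA was not analysed here, so whether a receptor gene was transcribed in these cells was not measured.

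Receptor genes carried few peaks for their length. A peak in the gene span or within 5 kb of it was listed at 23 of the 43 genes (53.5%), against 76.1% of all autosomal protein-coding genes. In the span alone 23 had one, against 69.5%. The 43 genes had a median span of 183 kb, where all autosomal genes had 17.6 kb, and longer genes have more room for peaks. Each gene was therefore set beside the other autosomal genes from 0.8 times its span up to its span divided by 0.8. Averaged over the 43 genes, 85.5% of such genes of like span had a peak. Of the receptor genes 8 (18.6%) had more peaks than the median gene of like span, where 44.7% of the other autosomal genes did. The median density was 0.00138 peaks per kb of span, against 0.109 over all autosomal protein-coding genes, which are mostly much shorter. Up to 100 kb of span the medians were 0.0714 for receptor genes and 0.121 for other genes. Over 100 kb they were 0.000581 and 0.0575, and over 300 kb 0.00218 and 0.0115. These are counts from 1 list and no test was made on them.

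The peaks were concentrated in a few members. The 43 genes held 273 distinct peaks (exact Poisson interval at 95%, 242 to 307, for counting error only). Gabbr2 alone held 108 of them (39.6%), Gabbr2 and Grik4 together 143 (52.4%), and the 7 genes with 10 or more peaks held 224 (82.1%). At the other end 20 genes had none, 5 had 1 and 14 had between 1 and 5. Most peaks lay inside the genes: 242 in a span and 31 in the flanks of 5 kb. Of the 273 peaks, 19 also lay in the span of another protein-coding gene and 40 within 5 kb of one. Their median width of 65 bp (17 to 209 bp) equalled the median of 65 bp over all peaks.

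**Figure D1:**
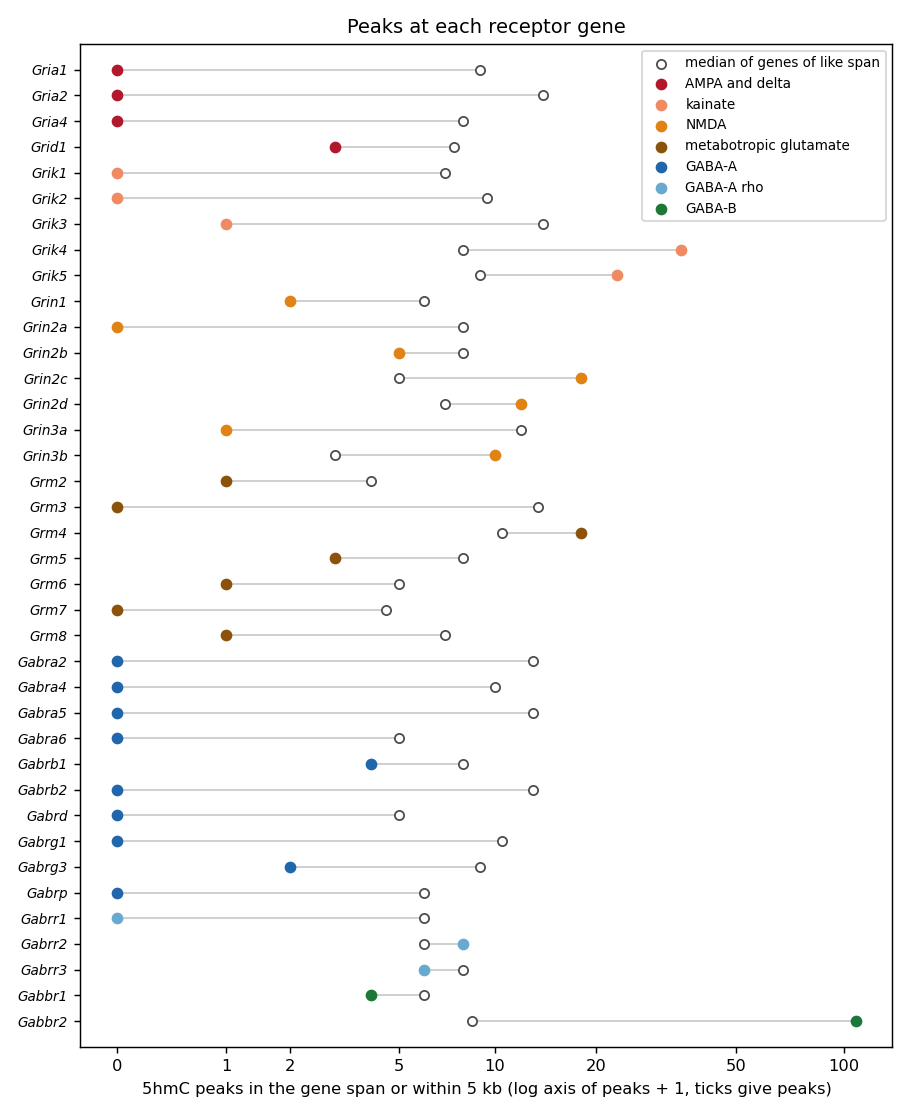
Peaks in the span or within 5 kb of 38 of the 43 receptor genes (filled, coloured by receptor class) and the median of other autosomal genes of like span (open), on a log axis of peaks + 1. Gabbr2 stands at 108 against 8.5, and 17 of the genes drawn stand at 0.

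The share of members with a peak ranged widely between receptor classes. NMDA receptor genes had one at 6 of 7 and metabotropic glutamate receptor genes at 6 of 8, where genes of like span averaged 82.7% and 85.0%. At the NMDA receptor genes Grin1, Grin3a and Grin3b, however, every peak lay within 5 kb of another protein-coding gene. Kainate receptor genes had one at 3 of 5, and AMPA and delta receptor genes at 2 of 5, where genes of like span averaged 85.4% and 86.5%. Of the 13 GABA-A genes outside the rho group, which form the main inhibitory channels of the brain, 2 had a peak (15.4%), where genes of like span averaged 86.7%. The rho subunits, known from the retina, had one at 2 of 3, and both GABA-B genes had one. All glutamate receptor genes together came to 17 of 25 (68%) and all GABA receptor genes to 6 of 18 (33.3%). These shares lie below the 76.1% of all autosomal genes, although the spans are longer.

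Sequence around the transcription start was looked at for 29 members that have an entry in a RefSeq table (GRCm38.p6) of promoters, 250 bases before to 50 after the start. A peak lay within 2.5 kb of a listed start at 5 of the 29 genes (Gabbr1, Gabrr2, Grik5, Grin2c and Grin2d), against 53% of autosomal genes with such an entry. Within 1 kb it was 2 of 29, Grin2c and Grin2d, against 29.9%. No peak overlapped the promoter window of any of the 29, where 5.4% of genes had such a peak. The 5 promoters below were chosen for these contrasts. Gabbr2 has the most peaks of all members and Grik3 only 1, Grin2c and Grin2d have the peaks nearest to a start, and Gabra6 lies in the receptor cluster without peaks. Capitals mark CG, the dinucleotide in which most cytosine methylation and hydroxymethylation of mammals occurs. The sequences run in the direction of transcription, from chr4:46991665-46991964 (minus strand) for Gabbr2, chr4:125490446-125490745 (plus) for Grik3, chr11:115267194-115267493 (minus) for Grin2c, chr7:45866632-45866931 (minus) for Grin2d and chr11:42321023-42321322 (minus) for Gabra6.
Gabbr2: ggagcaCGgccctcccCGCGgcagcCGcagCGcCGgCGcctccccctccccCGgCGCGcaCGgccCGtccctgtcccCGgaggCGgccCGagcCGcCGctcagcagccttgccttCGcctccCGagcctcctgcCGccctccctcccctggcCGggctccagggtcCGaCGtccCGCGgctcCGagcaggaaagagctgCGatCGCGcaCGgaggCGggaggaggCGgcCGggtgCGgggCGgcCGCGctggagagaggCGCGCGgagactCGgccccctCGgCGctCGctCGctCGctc
Grik3: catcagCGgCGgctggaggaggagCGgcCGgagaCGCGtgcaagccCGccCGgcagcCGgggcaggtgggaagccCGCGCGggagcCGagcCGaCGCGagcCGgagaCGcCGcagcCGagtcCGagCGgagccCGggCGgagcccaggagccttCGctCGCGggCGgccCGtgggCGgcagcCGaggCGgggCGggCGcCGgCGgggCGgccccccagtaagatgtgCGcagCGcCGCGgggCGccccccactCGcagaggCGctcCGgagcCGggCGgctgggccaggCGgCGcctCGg
Grin2c: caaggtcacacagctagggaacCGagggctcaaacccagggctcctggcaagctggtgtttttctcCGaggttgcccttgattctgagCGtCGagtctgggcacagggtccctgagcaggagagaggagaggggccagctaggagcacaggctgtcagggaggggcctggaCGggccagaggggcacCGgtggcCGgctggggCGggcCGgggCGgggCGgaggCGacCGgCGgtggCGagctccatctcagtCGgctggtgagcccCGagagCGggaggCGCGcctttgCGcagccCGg
Grin2d: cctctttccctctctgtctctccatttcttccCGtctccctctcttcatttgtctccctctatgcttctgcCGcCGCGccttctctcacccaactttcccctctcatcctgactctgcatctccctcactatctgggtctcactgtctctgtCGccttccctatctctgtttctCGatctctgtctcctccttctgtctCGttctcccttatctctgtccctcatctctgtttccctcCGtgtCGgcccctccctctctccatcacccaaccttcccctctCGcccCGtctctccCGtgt
Gabra6: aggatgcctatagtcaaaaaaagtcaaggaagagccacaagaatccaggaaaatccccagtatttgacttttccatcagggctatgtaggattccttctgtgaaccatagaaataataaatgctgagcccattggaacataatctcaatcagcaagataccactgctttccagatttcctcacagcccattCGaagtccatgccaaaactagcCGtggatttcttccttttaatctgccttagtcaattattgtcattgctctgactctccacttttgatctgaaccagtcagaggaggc

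The count of CG in the promoter was set beside the peaks, and no correlation between them over the members was computed. Gabbr2 and Grik3, a pair chosen for contrast, had like counts of CG and unlike counts of peaks. Gabbr2 held 46 CG in its 300 bases and Grik3 50, with 108 peaks at the one gene and 1 at the other. Grin2c held 22, Grin2d 12 and Gabra6 2. Over the 29 members the median was 12 CG (2 to 50), against 14 over all autosomal genes with an entry, and CG occurs in 95% of all those promoters. The 16 members with a peak had a median of 15.5 CG and the 13 without one 11. Over all autosomal genes the contrast was wider, with 18 CG for genes with a peak and 2 for genes without. The median of members without a peak thus lay above that of all genes without one, and no test was made.

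Gabbr2 encodes the GABA-B receptor subunit that couples to G proteins, and it had more peaks than any other member. It spans 329 kb on chromosome 4 (46662318 to 46991714) and held 105 peaks in the span and 3 more within 5 kb, 108 in all (exact Poisson interval 88.6 to 130). The median over the 326 genes of like span was 8.5, and 92.3% of them had fewer. By number of peaks it ranked 62 among the 20560 autosomal protein-coding genes. Its density of 0.319 peaks per kb lay close to the 0.310 per kb of the 500 kb on both sides. Its peak closest to another protein-coding gene was 11.2 kb from it, and 15 lay in the long non-coding RNA genes Gm32208 (8) and Gm32135 (7), which lie inside Gabbr2.

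Peaks in Gabbr2 were denser away from its start. The gene is transcribed toward lower coordinates, and its first 50 kb held 3 peaks. Counted from the 3′ end, successive 50 kb stretches held 18, 28, 18, 18, 15 and 5 peaks, and the remainder, at the start, held 3. The nearest peaks to the start lay 3.11 kb upstream and 6.11 kb inside the gene. Split at its midpoint, the side toward the 3′ end held 70 of the 105 peaks in the span and the side toward the start 35. Neighbouring peaks were a median of 1.38 kb apart, and the longest stretch without one was 33.1 kb. The neighbours within 500 kb with the most peaks were Coro2a, an actin-binding coronin (66), and Tbc1d2 (56).

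Its partner Gabbr1, the subunit that binds GABA, had fewer peaks. Gabbr1 spans 28.3 kb on chromosome 17 (37045966 to 37074305) and had 4 peaks (1.09 to 10.2), below the median of 6 at genes of like span. Relative to its start, with negative values upstream, the 4 peaks lay at -2.18, 1.37, 5.14 and 7.92 kb, and the remaining 20.4 kb held none. The 500 kb on both sides held 24 peaks, of which 23 were on the low side. The density in the gene, 0.106 per kb, was 4.41 times that of its surroundings, from only 3 peaks in the span.

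**Figure D2:**
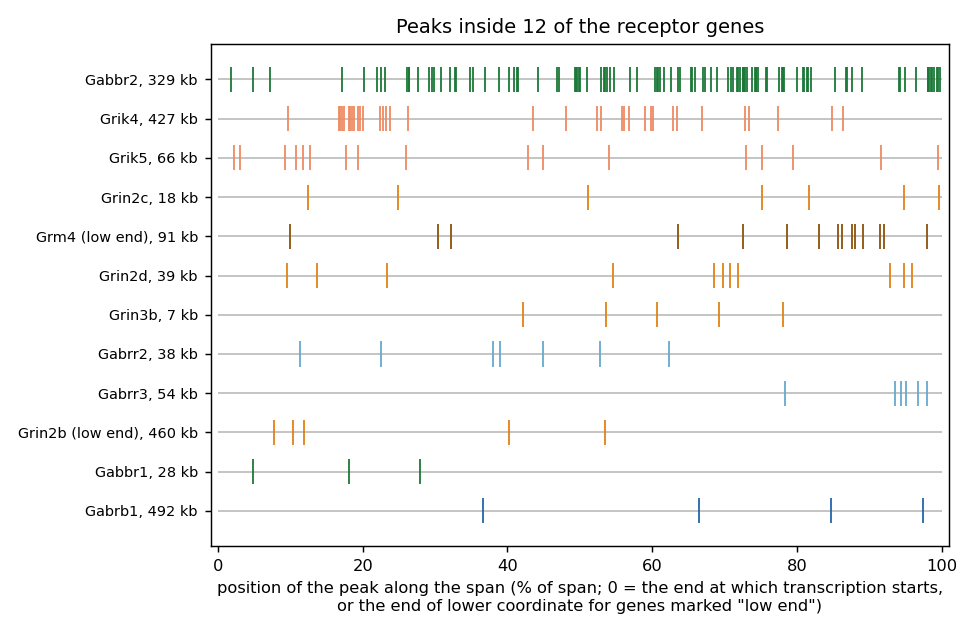
Each tick is a peak inside the span of 12 receptor genes, those with the most peaks among the genes named here, placed in percent of the span from the transcription start or, for genes marked so, from the low end. Peaks run along most of Gabbr2, gather in groups in Grik4 and sit at the 3′ end of Gabrr3.

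The kainate receptor genes Grik4 and Grik5 came next by number of peaks. Grik4, a subunit that forms channels only together with other kainate subunits, spans 427 kb on chromosome 9 (42518182 to 42945000) and had 35 peaks (24.4 to 48.7), all in its span. At genes of like span the median was 8, and 74.8% had fewer. The peaks ran from 58.4 to 385 kb from the low end, which is the 3′ end, and 16 of them lay between 70.7 and 111 kb from its listed start. The 73.7 kb on the 3′ side of that group held none. The peak closest to another protein-coding gene was 60.3 kb from it. The density of 0.0820 per kb was 0.410 of that in the 500 kb on both sides, and the neighbour Sorl1, a sorting receptor gene, had 100 peaks.

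Grik5, the other subunit of this kind, spans 65.8 kb on chromosome 7 (25009849 to 25075694) and had 23 peaks (14.6 to 34.5) against a median of 9. Of these, 14 were more than 5 kb from any other protein-coding gene. The rest lay within 5 kb of another gene, among them Zfp574, a zinc finger gene at its 5′ end with 12 peaks. With repeated lines kept Grik5 had 28. Grik3 spans 224 kb and had 1 peak, 214 kb from its low end, against a median of 14. The 500 kb on both sides of Grik3 held 175 peaks. Grik1 and Grik2, both channel-forming subunits, had none over 395 and 696 kb. The surroundings of Grik1 held 112 peaks, all on the low side, where Bach1, a transcription factor gene, has 29. Grik2 lay in a stretch of 2069 kb without a peak.

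NMDA receptor genes ranged from none to 18 peaks. The short genes Grin2c, Grin2d and Grin3b had more peaks than genes of like span. Grin2c, on chromosome 11 (115249169 to 115267297), had 18 peaks (10.7 to 28.4) over 18.1 kb plus flanks against a median of 5. Only 4 of the 18 lay more than 5 kb from another gene. The others were shared with Tmem104 (59 peaks), downstream, and with Fdxr, a mitochondrial reductase gene with 10, upstream. The peak nearest to the Grin2c start lay at -0.44 kb. Grin2d, on chromosome 7 (45831883 to 45871194), had 12 peaks (6.20 to 21.0) over 39.3 kb against a median of 7, of which 8 were more than 5 kb from another gene, 3 near Grwd1 and 1 in Kdelr1. The peaks nearest to its listed start lay at -0.78 and 0.87 kb, and 4 lay together at 22.4 to 23.7 kb.

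Grin3b, which encodes a subunit that binds glycine, spans 6.79 kb on chromosome 10 (79970397 to 79977190) and had 10 peaks (4.80 to 18.4) against a median of 3. None of the 10 was more than 5 kb from another gene, since Wdr18 and Tmem259 flank it closely. The 5 peaks in its own span lay 2.54 to 4.97 kb after the start and in no other protein-coding gene. Grin1, which encodes the subunit present in every NMDA receptor, had 2 peaks over 28.0 kb against a median of 6. Both lay at its 3′ end, within 5 kb of Lrrc26 and inside the antisense gene Grin1os, and the 23.4 kb from there to the start held none.

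The long NMDA receptor genes had few peaks or none. Grin2b, a subunit of the young forebrain, spans 460 kb and had 5 peaks (1.62 to 11.7) against a median of 8. They lay 35.7, 48.0, 54.8, 185 and 246 kb from its low end, the closest 366 kb from another protein-coding gene. Grin2a, which encodes the subunit that joins later in development, had none over 428 kb, in a peakless stretch of 936 kb. Grin3a had 1 over 184 kb, and this peak lay in Ppp3r2, a calcineurin subunit gene inside Grin3a. Without peaks that lie in another protein-coding gene, Grin3a had none.

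AMPA and delta receptor genes had few peaks. Gria1, Gria2 and Gria4, which encode the subunits of fast excitatory channels, had none over 319, 123 and 378 kb, where the medians of genes of like span were 9, 14 and 8. Peakless stretches of 1677, 579 and 898 kb held them. At Gria1 the next peak on the high side was 15.5 kb away, and that side held 85 peaks in 500 kb. The neighbour Galnt10 has 67. The delta receptor gene Grid1 had 3 peaks over 763 kb, where the median was 7.5. They lay 32.8, 393 and 584 kb from its low end.

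Of the metabotropic glutamate receptor genes, Grm4 had the most peaks. Grm4, a receptor that lowers cyclic AMP, spans 91.4 kb on chromosome 17 (27422387 to 27513826) and had 18 peaks (10.7 to 28.4) against a median of 10.5. Of these, 12 lay more than 58 kb from its low end, and the peak closest to another protein-coding gene was 44.7 kb from it. The 500 kb on both sides held 436 peaks, and the neighbours Anks1 and Nudt3 had 89 and 50. Grm5, a receptor that acts through phospholipase C, had 3 over 551 kb against 8. Of these 3, 2 lay 546 and 547 kb from the low end, close to the high end.

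The other metabotropic genes had 1 peak or none. Grm2, Grm6 and Grm8 had 1 each over 11.6, 15.8 and 860 kb. In Grm8 it lay 7.65 kb downstream of the nearest listed start, and the 844 kb below it held none. Grm3 and Grm7 had none over 240 and 922 kb. The medians at genes of like span were 4, 5 and 7 peaks for Grm2, Grm6 and Grm8, and of 13.5 and 4.5 for Grm3 and Grm7. Grm7 lay in a stretch of 1930 kb without a peak.

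GABA-A receptor genes lie in clusters, and 11 members belong to those on chromosomes 5, 7 and 11. Of these 11, 2 had a peak, Gabrb1 (4) and Gabrg3 (2). The cluster on chromosome 11 holds 4 members, among them Gabra6, known from cerebellar granule cells, and Gabrb2. It had 0 peaks over 722 kb and 0 in the 500 kb on each side. The nearest peaks lay 803 kb below and 711 kb above it, a stretch of 2.24 Mb. Of the 207169 intervals between neighbouring peaks on autosomes, 16 were at least this long, and assembly gaps were not removed from them. The mean over autosomes was 86.4 peaks per Mb.

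The clusters on chromosomes 5 and 7 held few peaks. The cluster on chromosome 5 (70751047 to 72149572) holds Gabrg1, Gabra2, Gabra4 and Gabrb1 and had 5 peaks over 1399 kb, or 3.58 per Mb. Of these, 4 lay in Gabrb1, at 180, 327, 416 and 479 kb from its low end, and the fifth in none of the 4 genes. Gabrb1 spans 492 kb, a length at which the median was 8. The 500 kb above the cluster held 57 peaks and the 500 kb below it 1, so the peaks in Gabrb1 lay on the side of the peak-rich flank. Gabra4 and Gabrb1 overlap at their starts, and neither had a peak within 2.5 kb of a listed start. The cluster on chromosome 7 holds 3 members, among them Gabrg3 and Gabra5, and had 2 peaks over 1112 kb, or 1.80 per Mb. Both lay in Gabrg3, which spans 671 kb, at 270 and 12.8 kb downstream of its start. The 500 kb below and above this cluster held 0 and 1.

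**Figure D3:**
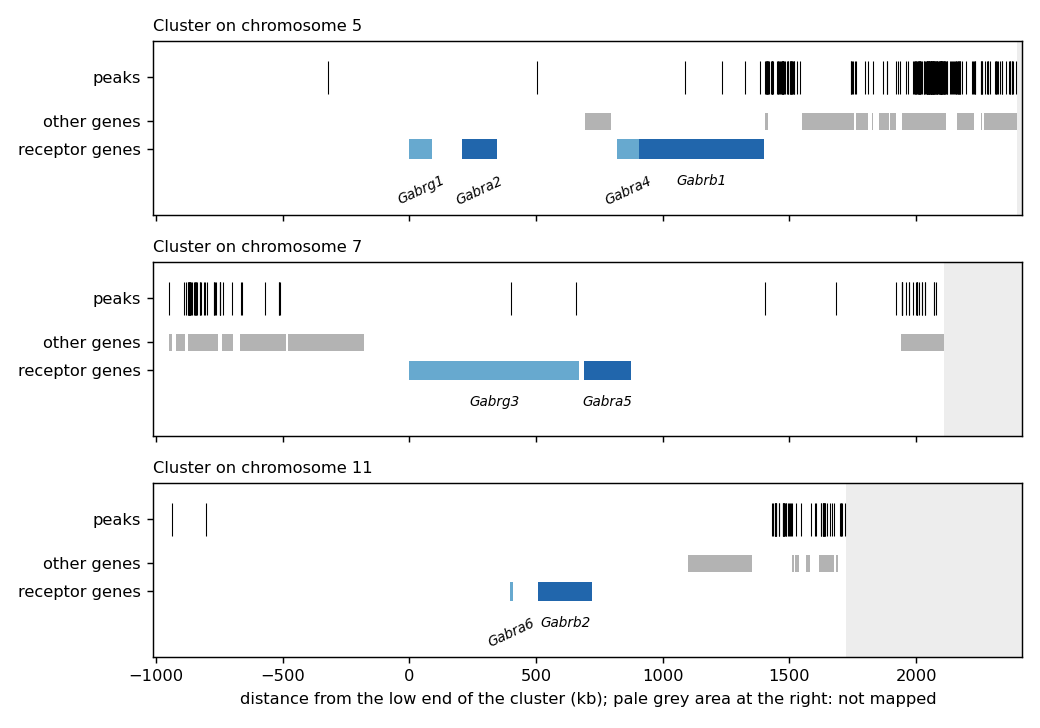
Peaks (black ticks), other protein-coding genes (grey) and the receptor genes named in the text (blue) of 3 GABA-A clusters and the 1000 kb on both sides, by distance in kb from the low end of each cluster. The cluster on chromosome 11 has 0 peaks, those on chromosomes 5 and 7 have 5 and 2, and peaks gather outside the clusters.

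The GABA-A genes outside these clusters varied. Gabrr2 and Gabrr1, which encode rho subunits, are neighbours on chromosome 4. Gabrr2 (33057712 to 33095865) had 8 peaks (3.45 to 15.8) over 38.2 kb against a median of 6, all more than 5 kb from any other gene, and Gabrr1 had none over 31.0 kb. The low side of this pair held 84 peaks in 500 kb and the high side 33. Bach2, a transcription factor gene of B cells with 177 peaks, reaches into the low side but lies mostly beyond these 500 kb. Gabrr1 was 9.19 and 10.5 kb from the nearest peaks. Gabrr3 on chromosome 16 (59407382 to 59461739) had 6 peaks (2.20 to 13.1) over 54.4 kb against a median of 8. Of these, 5 lay within Orai2-ps, a pseudogene of 3.21 kb in the 3′ end of Gabrr3 (59457584 to 59460790). All 5 were listed more than once, so that Gabrr3 had 11 with repeated lines kept. Orai2, a calcium channel gene on chromosome 5 whose name the pseudogene carries, had 25 peaks. Whether reads of Orai2 were placed on the pseudogene was not tested.

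Gabrd, which encodes a subunit of receptors outside synapses, had no peak over 13.1 kb on chromosome 4 (155384979 to 155398098) although 361 peaks lay in the 500 kb on both sides. Ski, a corepressor gene in this region, had 70. The nearest peaks were 14.0 and 26.7 kb away. Of the genes with a span like that of Gabrd, 83.1% had a peak. Gabrp had none over 28.2 kb, with 56 peaks in its surroundings. Of the 20 members without a peak, 13 had at most 6 peaks in the 500 kb on both sides, and 3 (Gabrd, Grik1 and Gabrr1) had 100 or more.

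The surroundings of a receptor gene and its own density went together only in part. Over the 43 genes, Spearman's rho between peaks per kb of span and peaks per kb of the 500 kb on both sides was 0.684, and over the 20517 other autosomal protein-coding genes it was 0.593. This describes 1 list, and genes of a cluster share their flanks. Within this relation the spans of long members lay low. Density was lower in the span than in the flanks at 32 members (74.4%) and higher at 7, where 54.2% of the other autosomal genes, mostly much shorter, were lower. Over 100 kb of span, 87.5% of members and 60.1% of other genes were lower, and over 300 kb 87.5% and 74.9%. Up to 100 kb the shares were 57.9% and 53.5%. The 4 genes of the cluster on chromosome 11 had 0 in both. Summed over the members, peaks over kb in the spans came to 0.190 of that in the flanks, against 0.901 for the other genes. Each gene adds its whole span to the first sum but the same flank length to the second. Long genes thus weigh more in the spans than in the flanks, and the ratio is not an average of ratios within genes. Without Gabbr2 the ratio was 0.116. The 7 genes above their flanks were Gabbr1, Gabbr2, Gabrg3, Gabrr2, Gabrr3, Grin2d and Grin3b, and at Gabbr2 and Grin2d the ratio was 1.03 and 1.01.

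**Figure D4:**
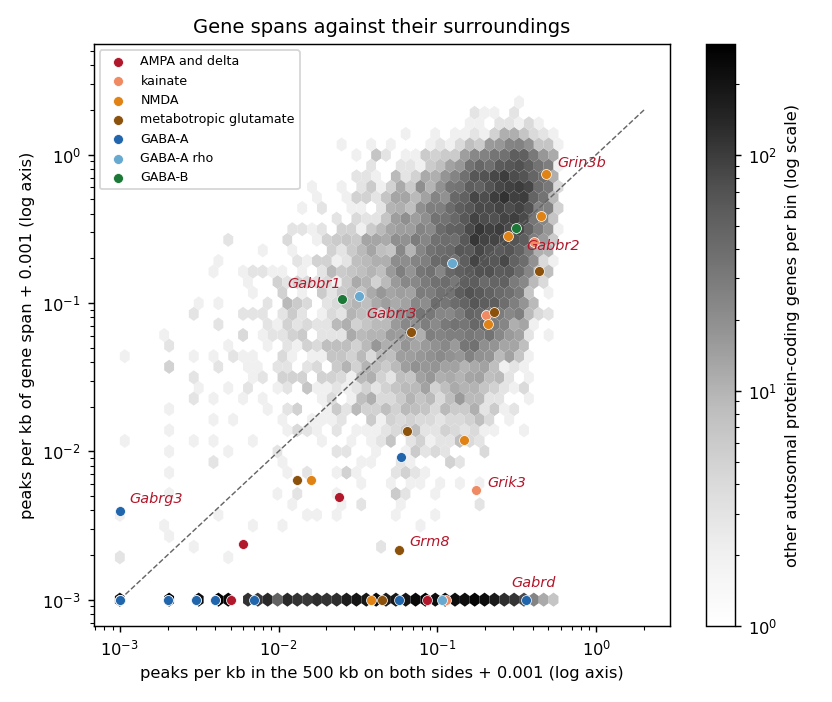
Peaks per kb of gene span against peaks per kb of the 500 kb on both sides, each + 0.001 on log axes, for the 43 receptor genes (coloured) and the other autosomal protein-coding genes (grey bins, darker for more genes). The dashed line marks equal densities, 32 receptor genes lie below it, and genes without a peak in the span lie on the lowest row.

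Peaks were rarer among long members than among other long genes. Of the 24 members over 100 kb, 12 had a peak (50%), against 87.6% of the 2288 other autosomal genes over 100 kb. In the range of 100 to 300 kb it was 2 of 8, with 1 peak each in Grik3 and Grin3a, while other genes of this range had a median of 13. Over 300 kb it was 10 of 16, with a median of 2 peaks against 7. Of these 10 genes, Gabbr2 and Grik4 had more peaks than the median gene of like span. Of the 19 members up to 100 kb, 11 had a peak (57.9%) against 74.7% of other genes, and 6 were above genes of like span. In the remaining 10 members over 100 kb with a peak, such as Grin2b, Gabrb1 and Grm8, the counts ran from 1 to 5. Their Poisson intervals overlap, so that no order among them is resolved.

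Other genes of the same synapses had a peak at larger shares than the receptor genes. Set beside genes of like span, the share was lower for metabolism and transport and near it for auxiliary subunits and scaffolds. Among 21 genes that make, degrade or transport glutamate and GABA, 16 had a peak (76.2%), against 76.1% of all autosomal genes and a mean of 86.3% at genes of like span. Their median was 5 peaks, and 10 were above the median gene of like span. Slc1a2, a glutamate transporter of astrocytes, had 20, and the transporter genes Slc6a12 and Slc1a7 13 and 11. The GABA-synthesising enzymes Gad1 and Gad2, the vesicular glutamate transporter Slc17a6 and the glutamate transporter Slc1a6 had none. Among 47 genes for auxiliary subunits and scaffolds of the receptors, 41 had a peak (87.2%), against 86.1% at genes of like span. Their median was 6 peaks, and 20 were above genes of like span. The calcium-dependent kinase genes Camk2d and Camk2g, expressed in many tissues, had 41 and 34, Nrxn2, a presynaptic adhesion gene, 40, and Camk2b 28. Cacng5, Kctd8, Neto1, Neto2, Nlgn1 and Shisa6 had none. Density was lower in the span than in the flanks of 500 kb at 71.4% of the metabolism and transport genes. At auxiliary subunits and scaffolds it was 72.3%, and at the receptor genes 74.4%.

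Potassium channel and protocadherin genes served as compared families, all taken by symbol, whether or not they are known from neurons. Kcn genes had a peak at 71 of 92 (77.2%, against 82.8% at genes of like span), with a median of 3, and 31.5% were above genes of like span. Pcdh genes had one at 34 of 67 (50.7%, against 81.3%), with a median of 1, and 32.8% were above. Pcdh genes of 1 cluster share peaks through their overlapping spans. The receptor genes, at 53.5% and 18.6%, lay near the Pcdh genes by the first share and below both families by the second. None of these shares was tested against another.

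**Figure D5:**
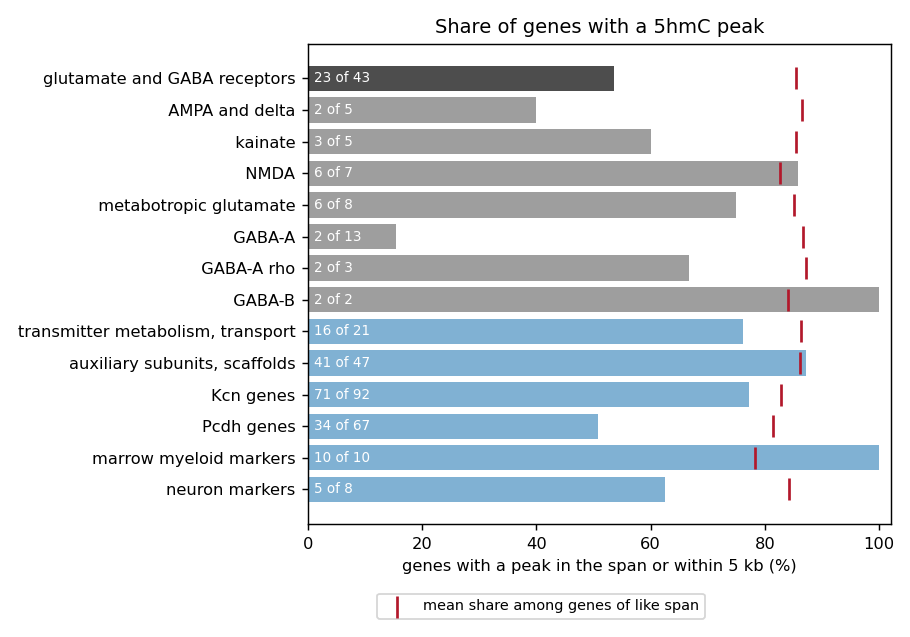
Percent of genes with a peak in the span or within 5 kb, with the counts written in the bars, for the receptor genes, their classes and the compared lists. Red marks give the mean share among genes of like span, which is 85.5% for the receptor genes against their own 53.5%.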

How the data were processed

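Sheared DNA had its 5hmC marked, per the labels' protocols, with an azide-bearing glucose, which was linked to biotin and enriched on avidin before sequencing. The authors called peaks with PICS, a model of forward and reverse reads, per the file headers, which give reads of 99 bp, fragments of 200 bp and a minimum of 3 reads in a window and 10 in a region. The deposited lists give chromosome, start and end in bp and no score, fold or p-value. The build mm10 was read from the submitters' processing notes, and no source used here names an aligner. What the control libraries hold is not stated.

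Starts were counted from 1. All starts and ends then equalled their single-precision value, so positions come in steps of up to 16 bp far along a chromosome. The 14799 repeated lines were counted once. Gene spans came from a RefSeq table of GRCm38.p6, which has the chromosomes of mm10, and models starting below 3 Mb, which lie on scaffolds, were left out. A peak was counted for each gene whose span, or span with 5 kb on both sides, held its midpoint. Python 3.11.15, pandas 2.3.3 and scipy 1.17.1 were used, and the counting was tested on simulated peaks. Promoters and strand came from a RefSeq table with entries for 29 of the 43 genes. No test was made, since 1 list has no replicate, and intervals are exact Poisson intervals at 95%. The members and lists were chosen with earlier results of these data known. All members were counted, and of each compared list the 4 genes with the most peaks and up to 6 without any were named. Some genes are not reported here by name. Alternatives covered the flank, the assignment of peaks, repeated lines, shared peaks, the band of like span and the width of the surroundings.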

Additional observations from a re-analysis of the deposited data

How the results depend on the processing

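Receptor genes with a peak numbered 23 in the span alone, with a flank of 2.5 kb, with repeated lines kept and by any overlap of the interval. They numbered 24 with a flank of 10 kb, 22 without peaks in another protein-coding gene and 20 without peaks within 5 kb of one, an alternative chosen after seeing the data. Distinct peaks numbered 273, 242 in the span alone, 300 with a flank of 10 kb and 165 without Gabbr2 (also chosen afterwards). The genes above the median of like span numbered 8, and 9 with repeated lines kept. Without peaks in another gene the median density was 0.00116 per kb, since Grin3a then had none. The ratio of summed spans to summed flanks was 0.194 with flanks of 100 kb, 0.193 with 1000 kb, 0.180 with repeated lines kept and 0.116 without Gabbr2. All of these weigh long genes more in the spans than in the flanks. A peak lay within 1 kb of a listed start at 2 genes, against 5 within 2.5 kb. Leaving out either leukaemia replicate gave 23 genes, 273 peaks, 0.00138 per kb and 8 genes from lowest to highest, which says nothing of stability, as both lists hold the same intervals. With no score, a stricter peak threshold was not run. No paired analysis was possible because only the leukaemia group has lists and no result comes from a test. Unknown read depth limits every count of 0.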

Other observations

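Receptor genes of other transmitters were grouped by symbol after the data were seen. Their shares with a peak ran from 1 of 3 to 7 of 7, beside 76.1% of all autosomal protein-coding genes, with no test of any difference. All 7 genes for P2X receptors, ATP-gated channels, and all 6 autosomal genes for P2Y nucleotide receptors had a peak, with medians of 10 and 12 and with 30 at P2rx7 and 22 at P2ry6. Both families are known from blood cells. Acetylcholine receptor genes had one at 15 of 21, with 23 at Chrna9 and 22 at Chrm3 and none at Chrna3, Chrna5, Chrna6, Chrna7, Chrnb3 and Chrnb4. Serotonin receptor genes had one at 6 of 13, with 13 at Htr2a. Adrenergic receptor genes had one at 5 of 9. All 5 dopamine receptor genes had one, with at most 4, but in the span alone only 3 of the 5 did. Of 3 autosomal glycine receptor genes, Glra1 had 2 peaks and Glra3 and Glrb none. Against genes of like span, 6 of 7 P2X genes and 5 of 6 P2Y genes were above the median. For serotonin and adrenergic receptors it was 1 of 13 and 1 of 9, and for acetylcholine receptors 9 of 21. For dopamine and glycine receptors it was 0 of 5 and 0 of 3.

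On chromosome X, which was outside the rule, Gria3, the remaining AMPA receptor gene, had 3 peaks over 278 kb. The GABA-A genes Gabra3, Gabre and Gabrq, which lie close together there, had none. Of the 208468 distinct peaks, 207188 lay on autosomes, so few were listed on all other chromosomes together. These X-linked counts were not set beside a share for other chromosome X genes. They therefore do not show whether the GABA-A genes there had fewer peaks than their neighbours on that chromosome.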
